A study of Mus musculus with 12 samples.

Results

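The genes of cytochrome P450 families 1 to 4 were followed in mouse kidneys with and without ischemia/reperfusion (I/R) injury, in control mice and in mice lacking augmenter of liver regeneration (ALR, encoded by Gfer) in the proximal tubule. Members were all protein-coding genes of the count table whose symbol begins with Cyp1, Cyp2, Cyp3 or Cyp4 followed by a subfamily letter and a gene number. Of the 55487 genes listed, 80 met this rule, and the 36 of these with a group mean of at least 1 CPM (counts scaled to a common library size) in any group are described here. The other 44 had at most 28 counts in any library, and 19 of the 80 had no count in any library. Cyp2c69 lay just inside the limit, with a highest group mean of 1.07 CPM, and Cyp2f2 just outside it, with 0.998 CPM. The limit was applied to counts scaled by library totals alone. On that scale Cyp2b10 and Cyp2j8 reached it only through KO-IR, Cyp4f18 only through Ctrl-IR and Cyp2c69 only through Ctrl. The differences of these genes from that group are therefore given as a description, and counts of calls include them.

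The 4 groups held 3 libraries each and are written Ctrl and KO (no I/R) and Ctrl-IR and KO-IR (with I/R). Per the study's methods, control mice carried 2 floxed ALR alleles without Cre, and the knockout mice, called PT-KO there, carried the same floxed alleles with Ggt1-Cre, a Cre driven in proximal tubule cells, on a mixed C57BL/6 background. The sample labels name the genotypes WT and ALR knockdown, the tissue kidney cortex, and the treatment of Ctrl and KO sham. Mice were 6 to 8 weeks old, both kidneys were made ischemic for 22 min, and tissue was taken 24 h after blood flow returned. Nothing in the sources used here says whether the libraries of a group came from separate litters or days, so the p-values measure the spread between these libraries.

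Cytochromes P450 are heme enzymes that insert 1 atom of oxygen into their substrate with electrons from NADPH, passed on by P450 oxidoreductase (Por). Families 1 to 3 oxidize drugs, pollutants, steroids and fatty acids, and several of their genes are switched on by xenobiotic-sensing receptors such as AHR, CAR and PXR. Family 4 enzymes mainly hydroxylate fatty acids at or near the end of the chain, and Cyp4a genes are classical targets of the fatty acid receptor PPARα. In kidney the proximal tubule carries much of the P450 content, the enzymes turn arachidonic acid into epoxides (Cyp2c and Cyp2j) and hydroxylated products (Cyp4a and Cyp4f) that act on vessels and salt transport, and many of the genes differ between male and female mice.

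Library totals ran from 12165089 to 23123693 counts, and all 12 proximal tubule markers examined were detected in every group. The libraries of Ctrl differed in sex chromosome transcripts: Ctrl libraries 1 and 2 held 22402 and 19755 counts of Xist, the transcript of the silenced X chromosome, and 0 counts of the Y-linked genes Ddx3y, Eif2s3y, Kdm5d and Uty. Ctrl library 3 and the other 9 libraries held at most 11 Xist counts and carried all 4 Y-linked transcripts. For Ctrl library 3 the group rests on the column name, since no control sample of the labels has that number (they are 1, 2 and 4). Comparisons with Ctrl are therefore given with all 3 Ctrl libraries and with Ctrl library 3 as the only one, in a fit to 10 libraries that assumes it varies as the other groups do. The targeted gene Gfer was not lower in the knockout groups, at 11.4 to 14.4 CPM in Ctrl, 9.97 to 17.1 in KO, 15.3 to 20.0 in Ctrl-IR and 21.6 to 22.8 in KO-IR. The table has 1 value per gene, so reads of the floxed exons cannot be told apart from the rest, and the genotype of a library rests on its label.

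Levels below are CPM scaled by TMM, which adjusts for library size and composition. Summed over the 80 genes, P450 mRNA was 3699, 3704 and 8328 CPM in Ctrl libraries 1, 2 and 3, and 4732, 3173 and 5102 CPM in Ctrl-IR. It was 7078, 10690 and 9467 CPM in KO, against 5280, 4692 and 4917 CPM in KO-IR. The KO-IR libraries thus all lay below the KO libraries, while Ctrl libraries 1 and 2 lay within the range of Ctrl-IR and library 3 above it. Per kilobase of exon, the highest mean levels in KO were those of Cyp4b1 (1345 ± 393 CPM per kb, SD, n = 3), Cyp2j5 (845 ± 56.1) and Cyp2e1 (778 ± 245), and Cyp2j5 and Cyp2e1 did not differ beyond their spread. In KO-IR the order was Cyp4b1 (849 ± 65.6 CPM per kb), Cyp2e1 (277 ± 67.3), Cyp2a5 (223 ± 33.9) and Cyp2j5 (189 ± 4.38), and the ranges of Cyp2e1 and Cyp2a5, as mean ± SD, overlapped, as did those of Cyp2a5 and Cyp2j5.

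**Figure D1:**
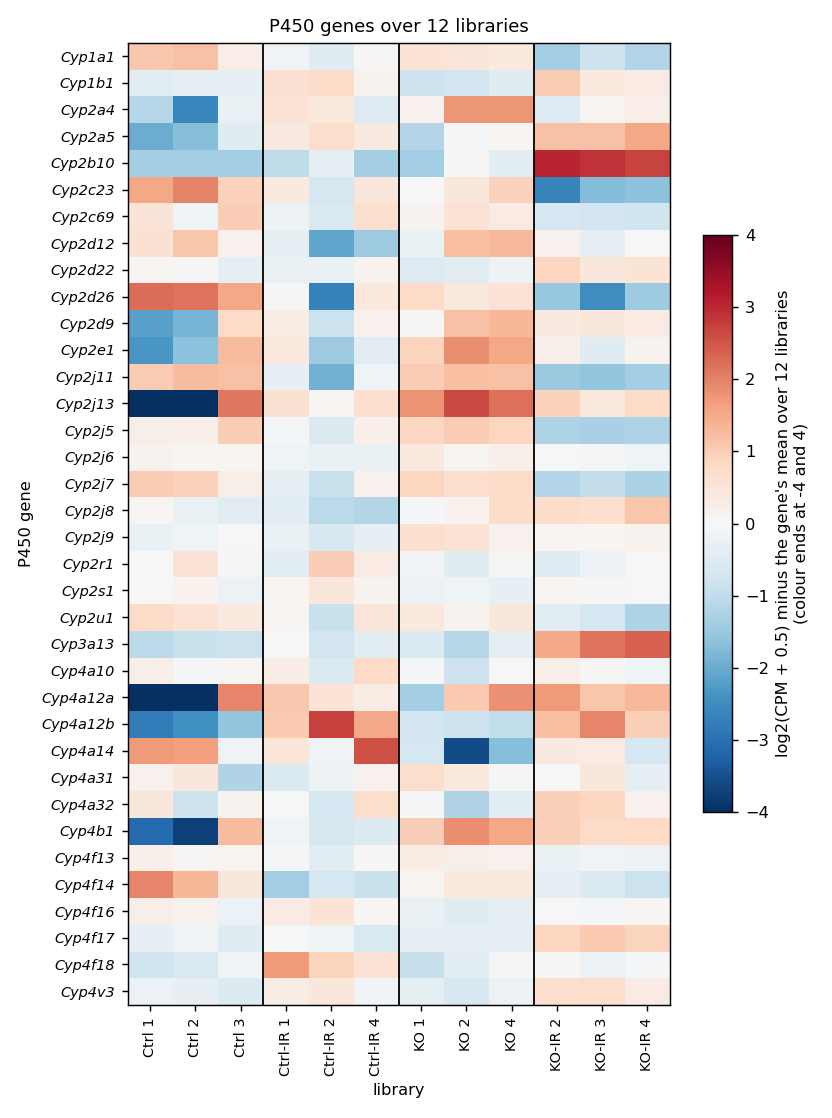
Each row is 1 of the 36 P450 genes and each column 1 of the 12 libraries. Colour is log2(CPM + 0.5) minus the mean of the gene over the 12 libraries, red above and blue below, with the scale ending at -4 and 4. Ctrl libraries 1 and 2 are blue for Cyp2j13, Cyp4a12a and Cyp4b1 where Ctrl library 3 is red, and the 3 KO-IR columns resemble each other, with Cyp2b10 and Cyp3a13 red and Cyp2j5, Cyp2j11 and Cyp2c23 blue.

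Many P450 genes differed between the Ctrl libraries. Between Ctrl library 3 and the mean of the libraries carrying Xist, 14 of the 36 P450 genes (38.9%) differed by more than 2-fold, 10 higher and 4 lower in library 3, as did 6.79% of all genes tested. Some of the 14 had few counts in Ctrl libraries 1, 2 and 3, as Cyp4f18 (5, 6 and 12) and Cyp1a1 (44, 39 and 19). Cyp2c69 (21, 8 and 30) also reached the level limit only through Ctrl. Cyp2j13, an epoxygenase of the Cyp2j cluster, was at 0.603 and 0.489 CPM (12 and 8 counts) in Ctrl libraries 1 and 2 and at 327 CPM (5906 counts) in library 3. It was at 81.0 to 475 CPM in all 9 libraries of the other groups. Its values were looked at because of this split, outside the rule for named genes.

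Cyp4a12a, an androgen-responsive fatty acid hydroxylase, was at 1.51, 0.673 and 157 CPM in Ctrl libraries 1, 2 and 3. Cyp4b1, a hydroxylase of medium-chain fatty acids, was at 123, 80.1 and 2561 CPM in the same libraries, and Cyp2e1, the ethanol-oxidizing P450, at 119, 190 and 1454 CPM. Library 3 was above the mean of libraries 1 and 2 by 25.2-fold for Cyp4b1 and by 9.39-fold for Cyp2e1. Cyp4a14 and Cyp4a31, fatty acid hydroxylases of the Cyp4a cluster, went the other way, with 456, 437 and 127 CPM for Cyp4a14 and 235, 287 and 90.9 CPM for Cyp4a31. A list of 5 androgen-regulated kidney genes outside the P450 genes split in the same libraries: its summed level ran from 7780 to 23800 CPM in Ctrl, and Slco1a1, an organic anion transporter, was at 0.0503, 0.122 and 371 CPM. With libraries of both kinds in Ctrl alone, sex and library cannot be told apart.

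The bases just upstream of Cyp4b1 and Cyp2j13, among the genes with the widest split, are shown so that their promoters can be set beside these values. They are the 250 bases before the RefSeq start of each gene in build GRCm38.p6, on the minus strand, at chr4:115647722-115647971 for Cyp4b1 and chr4:96077541-96077790 for Cyp2j13. Capitals mark TGTTCT, a core sequence bound by steroid hormone receptors, in Cyp4b1, and GCGTG, the core of a binding site of AHR, in Cyp2j13.
Cyp4b1: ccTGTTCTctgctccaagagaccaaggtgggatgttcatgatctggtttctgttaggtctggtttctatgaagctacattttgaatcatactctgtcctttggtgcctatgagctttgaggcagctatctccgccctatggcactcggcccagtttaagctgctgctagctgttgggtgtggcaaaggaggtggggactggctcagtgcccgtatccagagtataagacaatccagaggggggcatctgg
Cyp2j13: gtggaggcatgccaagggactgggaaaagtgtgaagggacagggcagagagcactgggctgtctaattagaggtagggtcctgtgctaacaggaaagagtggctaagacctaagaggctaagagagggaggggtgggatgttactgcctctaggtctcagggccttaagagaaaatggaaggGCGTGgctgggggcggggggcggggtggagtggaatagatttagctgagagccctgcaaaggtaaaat
Upstream windows were matched for 25 of the 36 genes. On either strand, AGAACA or its reverse TGTTCT was found in 5 of these (20.0%), against 16.1% of all 32817 windows in the RefSeq table, and GCGTG or CACGC in 8 (32.0%), against 28.1%. AGGTCA or TGACCT, a core bound by many nuclear receptors, was found in 1 of the 25 (4%), Cyp2j5, against 14.0% of all windows. A match is a string of letters and shows no binding.

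**Figure D2:**
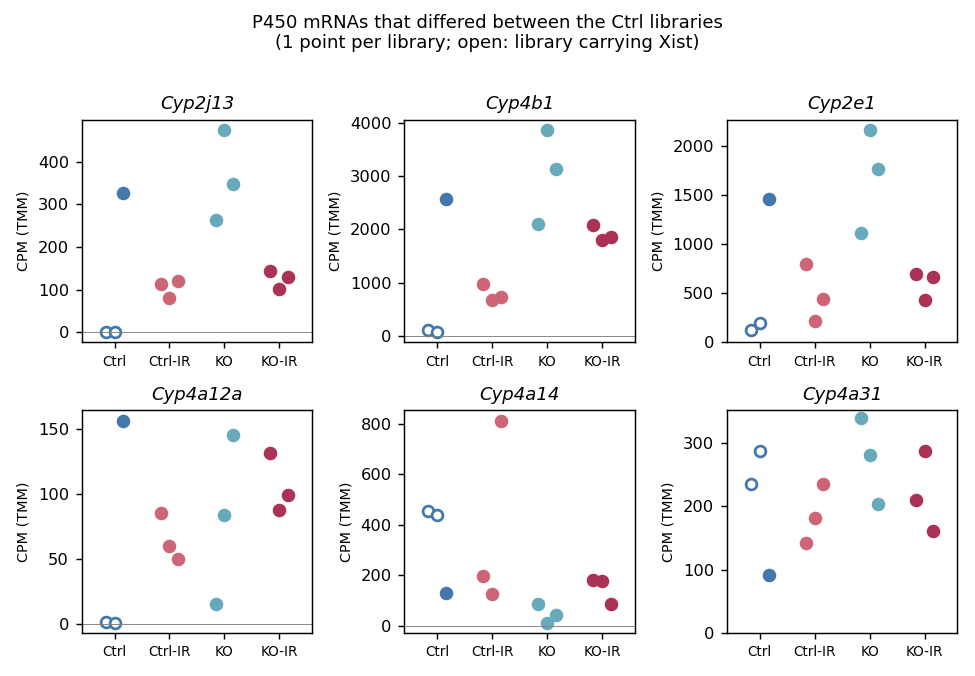
CPM (TMM-scaled, linear axes from 0) of 6 P450 genes in the 12 libraries, 1 point per library by group; open points are the Ctrl libraries that carry Xist. For Cyp2j13, Cyp4b1, Cyp2e1 and Cyp4a12a the open points lie below the filled Ctrl point, which is at 327, 2561, 1454 and 157 CPM, and for Cyp4a14 and Cyp4a31 above it.

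The effect of I/R drew most calls among the libraries labelled ALR knockdown, all 6 of which carry Y-linked transcripts. A gene was called when its adjusted p in edgeR's quasi-likelihood test, corrected over all genes tested, was under 0.05. Of the 36 P450 genes, 28 were called between KO-IR and KO, 11 higher and 17 lower, where 65.5% of all genes tested were called, 32.9% higher and 32.7% lower. The median log2 fold change of the 36 was -0.33, against 0.01 for all genes tested. The libraries did not overlap for 26 of the 36, as for 70.8% of all genes. The same comparison lowered all 12 proximal tubule markers, from a summed 18700 to 21700 CPM in KO to 5190 to 5990 CPM in KO-IR, with a median log2 fold change of -2.52. In whole tissue, fewer cells of a type and less RNA per cell cannot be told apart, and the part of this loss in the P450 changes was not tested. Of markers of other nephron segments 8 of 10 were lower (5880 to 6800 CPM in sum in KO, 2390 to 2890 CPM in KO-IR). Endothelial markers were higher in 3 of 4 (245 to 261 and 337 to 341 CPM), fibroblast markers in 2 of 4 (81 to 156 and 106 to 191 CPM), and of 7 macrophage and neutrophil markers 4 were higher and 2 lower (65.5 to 68.5 and 81.3 to 107 CPM). Of the 5 androgen-regulated genes outside the P450 genes 2 were higher and 3 lower (22400 to 32700 and 15000 to 16700 CPM). Their part in the P450 changes was not tested either.

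Of the epoxygenases of the Cyp2j subfamily, which lie side by side on chromosome 4, 6 of 7 were lower after I/R, where 32.7% of all genes were lower. For Cyp2j6 and Cyp2j9 the call was kept in 3 of 6 fits that each left out 1 library. Cyp2j5 (chr4:96628773-96664154, minus strand, mm10), an arachidonic acid epoxygenase of mouse kidney, was at 1875, 2128 and 1941 CPM in KO and at 449, 431 and 449 CPM in KO-IR. The groups were far apart and the I/R libraries nearly equal, and Cyp2j5 was 4.49-fold lower (log2 fold change -2.17, SE 0.09, adjusted p = 7.83e-08). Cyp2j11 went from 234, 264 and 262 CPM to 40.4, 38.2 and 44.7 CPM, a 6.20-fold fall (log2 fold change -2.63, SE 0.10, adjusted p = 4.42e-08). Cyp2j13 went from 264, 475 and 348 CPM to 144, 101 and 131 CPM (log2 fold change -1.54, SE 0.20, adjusted p = 8.8e-05).

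Cyp2j7, a member of the same cluster with few reads, fell from 33 to 35 counts in each KO library to 2, 6 and 2 counts. Cyp2j6 and Cyp2j9 fell by less, with log2 fold changes of -0.32 and -0.40, and the call for Cyp2j9 was lost without KO library 1 (-0.31), without KO library 2 (-0.36) or without KO-IR library 3 (-0.37). Cyp2j8, which reached the level limit only through KO-IR, was the exception, with a fitted log2 fold change of 0.74 (SE 0.38). No 100-base window of the reference transcripts of these 7 genes occurs in another gene, as counted on the reference. The window upstream of Cyp2j5, the Cyp2j gene with the highest level, is at chr4:96664120-96664369 on the minus strand of GRCm38.p6, with AGGTCA in capitals.
Cyp2j5: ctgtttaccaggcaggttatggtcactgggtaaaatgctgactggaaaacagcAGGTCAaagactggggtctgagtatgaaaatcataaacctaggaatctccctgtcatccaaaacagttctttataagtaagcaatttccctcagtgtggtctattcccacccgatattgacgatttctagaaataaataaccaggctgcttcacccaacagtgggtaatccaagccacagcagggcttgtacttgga

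The Cyp2c epoxygenases and 2 of the 4 Cyp2d genes were lower as well, where 32.7% of all genes were lower. Cyp2c23, a major epoxygenase of the kidney, was at 17.1, 23.4 and 32.5 CPM in KO and at 2.31, 4.72 and 5.09 CPM in KO-IR (log2 fold change -2.56, SE 0.29, adjusted p = 3.78e-05). Cyp2d26 went from 172, 135 and 150 CPM to 34.8, 17.4 and 37.3 CPM (log2 fold change -2.37, SE 0.24, adjusted p = 1.65e-05). Neither gene had overlapping groups. Cyp2d12 was lower too, and Cyp2c69 with a log2 fold change of -2.61, on 11 to 21 counts per KO library and 2 or 3 per KO-IR library. For Cyp2c69, 36.3% of the 100-base windows of its transcript are shared with other Cyp2c genes. Cyp2d22 moved the other way, from 18.1, 18.9 and 22.3 CPM to 47.8, 35.4 and 38.3 CPM (log2 fold change 1.02, SE 0.14, adjusted p = 0.000102).

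Cyp2a4 and Cyp2a5 moved in opposite directions. Cyp2a4, a testosterone hydroxylase, was at 183, 550 and 548 CPM in KO and at 112, 173 and 194 CPM in KO-IR (log2 fold change -1.42, SE 0.36, adjusted p = 0.00586), and the groups overlapped because of KO library 1. Cyp2a5, a coumarin hydroxylase known to rise in stressed liver, was at 81.1, 177 and 197 CPM in KO and at 420, 422 and 543 CPM in KO-IR (log2 fold change 1.60, SE 0.27, adjusted p = 0.000513). The lowest Cyp2a5 value after I/R was above the highest without it. The difference between the changes of both genes was not tested. Their transcripts share 100-base windows with each other and with a pseudogene, 11.2% of those of Cyp2a4 and 14.4% of those of Cyp2a5, and how such reads were counted is not given in the sources used here.

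Upstream of their starts both genes are nearly the same, which is why both windows are shown: over 251 aligned columns 245 bases (97.6%) are identical, 4 differ and 2 columns at the ends are gaps. The windows lie on the plus strand at chr7:26306942-26307191 (Cyp2a4) and chr7:26835089-26835338 (Cyp2a5) of GRCm38.p6, and capitals mark the bases at which they differ or that have no partner.
Cyp2a4: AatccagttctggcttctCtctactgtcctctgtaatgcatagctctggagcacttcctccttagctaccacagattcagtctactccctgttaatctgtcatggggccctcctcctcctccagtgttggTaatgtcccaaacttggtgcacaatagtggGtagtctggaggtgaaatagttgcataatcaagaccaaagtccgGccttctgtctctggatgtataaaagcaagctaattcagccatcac
Cyp2a5: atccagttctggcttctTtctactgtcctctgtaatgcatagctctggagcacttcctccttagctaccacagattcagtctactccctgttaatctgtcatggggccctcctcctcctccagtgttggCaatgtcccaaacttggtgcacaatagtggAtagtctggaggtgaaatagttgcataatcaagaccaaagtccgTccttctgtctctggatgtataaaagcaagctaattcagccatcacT

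Cyp2e1 (chr7:140763739-140774987, plus strand, mm10) was at 1116, 2162 and 1762 CPM in KO and at 695, 431 and 667 CPM in KO-IR (log2 fold change -1.50, SE 0.24, adjusted p = 0.000361). Cyp4b1 (chr4:115624725-115647723, minus strand) fell by less, from 2101, 3864 and 3137 CPM to 2082, 1800 and 1862 CPM (log2 fold change -0.67, SE 0.19, adjusted p = 0.00945). Its highest I/R library lay just under its lowest KO library.

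Of 6 Cyp4a genes tested, 3 rose and 3 were not called, where 32.9% of all genes were higher and 32.7% lower. Cyp4a10, a PPARα-responsive fatty acid hydroxylase and the Cyp4a gene with the highest mean level over the 12 libraries, was at 319, 186 and 328 CPM in KO and at 389, 340 and 292 CPM in KO-IR, and the groups overlapped (log2 fold change 0.29, SE 0.20, adjusted p = 0.228). Cyp4a14, another gene that responds to PPARα, was at 85.3, 11.2 and 43.0 CPM and at 179, 175 and 85.0 CPM (log2 fold change 1.65, SE 0.55, adjusted p = 0.0229). It gave 2.43 without KO library 1. The call was lost without KO library 4 (1.59, adjusted p = 0.0718) or without KO-IR library 3 (1.5, adjusted p = 0.0656). Cyp4a31 gave -0.33 and Cyp4a12a 0.37 (1.08 without KO library 4), neither called.

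Cyp4a12b, a close copy of Cyp4a12a, rose most among the Cyp4a genes, from 6.81 to 8.2 CPM in KO to 33.3, 56.4 and 27.7 CPM in KO-IR (log2 fold change 2.38, SE 0.25, adjusted p = 1.97e-05). Cyp4a12a itself was at 15.3, 83.9 and 145 CPM in KO and at 131, 87.4 and 99.5 CPM in KO-IR. The transcripts of this pair share 35.8% and 36.2% of their 100-base windows with each other, so that reads of one may have been counted for the other. Outside the P450 genes, 16 of 27 PPARα targets tested rose and 7 fell in the same comparison, led by the lipid droplet protein Plin2 (log2 fold change 5.88) and the pyruvate dehydrogenase kinase Pdk4 (5.72), with a median of 0.49 for the list and 0.01 for all genes.

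The Cyp1 genes above the limit, Cyp1a1 and Cyp1b1, are targets of AHR, and they moved in opposite directions. Cyp1a1, which oxidizes polycyclic hydrocarbons, had 22, 24 and 19 counts in KO and 0, 5 and 1 in KO-IR (log2 fold change -3.38, SE 0.59, adjusted p = 0.000616, and -4.85 without KO-IR library 3). Cyp1b1, which is also expressed in mesenchymal cells, rose from 15.0, 16.2 and 19.3 CPM to 56.0, 36.1 and 34.2 CPM (log2 fold change 1.31, SE 0.19, adjusted p = 0.00017). Of 5 AHR targets tested outside the P450 genes, 4 rose and none fell, among them the glutathione transferase Gsta1 (log2 fold change 8.21, SE 0.61) and the quinone reductase Nqo1 (1.95). Gsta1 was barely detected in KO, at 0.0539 to 0.189 CPM, and was at 20.0 to 59.8 CPM in KO-IR. The window upstream of Cyp1a1, shown because its counts went against those targets, holds 1 GCGTG, in capitals, at chr9:57697363-57697612 on the plus strand of GRCm38.p6.
Cyp1a1: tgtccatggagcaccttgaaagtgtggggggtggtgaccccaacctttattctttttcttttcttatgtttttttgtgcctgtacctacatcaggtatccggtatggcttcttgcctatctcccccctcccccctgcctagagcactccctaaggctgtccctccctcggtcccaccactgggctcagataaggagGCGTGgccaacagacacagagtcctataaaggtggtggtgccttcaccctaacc

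Cyp2b10 and Cyp3a13, drug-metabolizing P450 genes known from liver and intestine, had few counts without I/R. Cyp2b10 (chr7:25897620-25926624, plus strand, mm10), the classical target of CAR, had 0, 15 and 7 counts in KO and 117, 200 and 121 counts in KO-IR. This was 7.80 to 10.01 CPM after I/R, and the fitted log2 fold change was 4.35 (SE 0.52), or 5.3 without KO library 2. Cyp3a13 (chr5:137892932-137921619, minus strand) rose from 17, 10 and 21 counts to 71, 224 and 176 counts (log2 fold change 3.25, SE 0.35, adjusted p = 2.31e-05).

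Among markers of liver cells, Cps1, a urea cycle enzyme, and Ahsg, a plasma protein, had no count in any KO-IR library, and Alb was at 12.7 to 19.2 CPM there, above its 2.97 to 6.81 CPM in KO and 1.71 to 2.72 CPM in Ctrl-IR. The summed level of the 9 liver genes, 2710 to 5210 CPM in KO-IR and 149 to 266 CPM in KO, came mainly from the fibrinogen genes Fga and Fgb, which belong to the acute-phase response. Of 7 liver genes tested between KO-IR and KO, 3 were higher and 3 lower, and Ttr was at 55.1 to 69.7 CPM in KO-IR and 114 to 226 CPM in KO. Of the adrenal list, which tells adrenal tissue left on the kidney, 4 of 7 genes were at 0 in every KO-IR library and the sum was 9.62 to 11.9 CPM there, above the 3.88 to 5.3 CPM of KO. Against Ctrl-IR, 4 of the 6 liver genes tested were higher in KO-IR, Alb among them (log2 fold change 2.79, adjusted p = 0.000265). The part of these changes in those of Cyp2b10 and Cyp3a13 was not tested.

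Cyp4f17 rose from 9.21, 8.78 and 9.08 CPM in KO to 21.5, 24.5 and 22.0 CPM in KO-IR, with little spread in either group (log2 fold change 1.32, SE 0.12, adjusted p = 6.95e-06). Its relatives Cyp4f13 and Cyp4f14 fell (log2 fold changes -0.47 and -1.46), the latter from 18, 28 and 25 counts to 8, 12 and 5, and Cyp4f16 and Cyp4f18 were not called. Of the remaining genes, Cyp4v3, a fatty acid hydroxylase, rose (1.07), as did Cyp2s1 (0.29) and Cyp4a32 (1.55), and Cyp2u1 fell (-1.36). The call for Cyp2s1 was lost in each of the 6 fits that left out a library, that for Cyp2d12 without KO library 2 or 4 or KO-IR library 3 or 4, and that for Cyp2j6 without KO library 1 or KO-IR library 3 or 4. Cyp2r1, a vitamin D hydroxylase, gave -0.06 (SE 0.33).

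**Figure D3:**
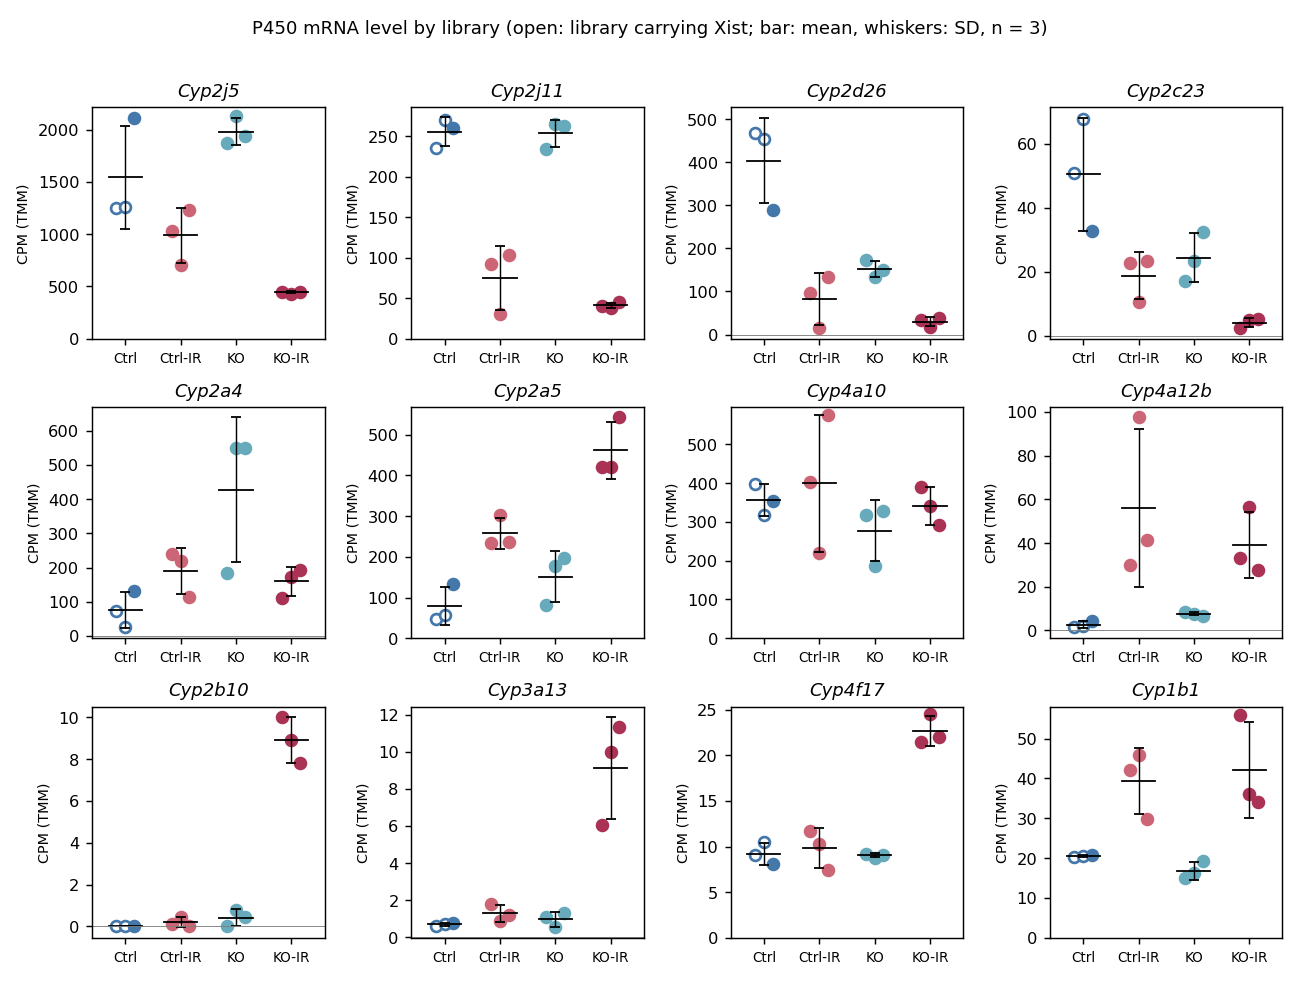
CPM (TMM-scaled, linear axes) of 12 P450 genes by group, with 1 point per library, the mean as a bar and the SD as whiskers (n = 3); open points are Ctrl libraries that carry Xist. Cyp2b10 and Cyp3a13 reach 7.80 to 10.01 and 6.08 to 11.4 CPM in KO-IR and stay under 2 CPM in the other groups, and Cyp4f17 is at 21.5 to 24.5 CPM in KO-IR and under 12 CPM elsewhere.

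The knockout and control kidneys were next compared after I/R, again in libraries that all carry Y-linked transcripts. Between KO-IR and Ctrl-IR, 12 P450 genes were called, 9 higher and 3 lower in KO-IR, and 46.9% of all genes tested were called, 22.5% higher and 24.4% lower. With total counts in place of TMM, which moved the median of all genes by -0.21, the split was 7 higher and 6 lower. Without Ctrl-IR library 2 there were 18 calls, 8 higher and 10 lower, where 48% of all genes were called, 22.9% higher and 25.1% lower. The libraries did not overlap for 19 of the 36 genes, as for 58.7% of all genes. Both this comparison and the previous one contain the KO-IR libraries. The proximal tubule markers summed to 6400 to 12600 CPM in Ctrl-IR and 5190 to 5990 CPM in KO-IR, and 6 of 12 were lower. Fibroblast markers summed to 518 to 700 CPM in Ctrl-IR and 106 to 191 CPM in KO-IR, with 3 of 4 lower, and endothelial markers to 242 to 269 and 337 to 341 CPM, with 3 of 4 higher. The part of these in the P450 differences was not tested.

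Cyp2b10 had 3, 9 and 0 counts in Ctrl-IR, against the 117, 200 and 121 counts of KO-IR, with a fitted log2 fold change of 5.37 (SE 0.57), or 6.7 without Ctrl-IR library 2. Cyp3a13 had 40, 17 and 19 counts, or 1.79, 0.888 and 1.20 CPM, in Ctrl-IR, and was 6.97-fold higher in KO-IR (log2 fold change 2.80, SE 0.35, adjusted p = 0.000762). For both genes every KO-IR library stood above every Ctrl-IR library. Cyp2j8, which also reached the level limit only through KO-IR, had 10, 2 and 1 counts in Ctrl-IR and 19, 34 and 35 in KO-IR. The fitted log2 fold change of Cyp2j8 was 2.98 (SE 0.59), or 4.27 without Ctrl-IR library 1. Cyp4f17 was at 11.8, 10.3 and 7.40 CPM in Ctrl-IR and 2.29-fold higher in KO-IR (log2 fold change 1.20, SE 0.18, adjusted p = 0.00162).

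Cyp4b1 was at 971, 683 and 739 CPM in Ctrl-IR, below all KO-IR libraries (log2 fold change 1.26, SE 0.17, adjusted p = 0.00113). Cyp2a5 was at 235, 302 and 236 CPM there and higher in KO-IR (0.84, SE 0.16, adjusted p = 0.00376). Cyp2d22 (0.76), Cyp4a12a (0.70) and Cyp2j9 (0.53) were also higher. The call for Cyp4a12a was lost without Ctrl-IR library 2 (0.62) or 4 (0.54) and without KO-IR library 2 (0.53) or 4 (0.75), and that for Cyp2j9 without KO-IR library 4 (0.51). The androgen-regulated genes outside the P450 genes moved beside these: 4 of 5 were higher and 1 lower in KO-IR, and their sum was 9440 to 12100 CPM in Ctrl-IR and 15000 to 16700 CPM in KO-IR. Their part in these differences was not tested.

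Of the 32 P450 genes tested in this comparison, 3 were lower in KO-IR. The filter on low counts left out Cyp1a1, Cyp2c69, Cyp2j7 and Cyp4f14, and with no filter 17 of 36 were called, 10 higher and 7 lower, where 26.9% of all genes were called, 12.5% higher and 14.4% lower. Cyp2j5 was at 1030, 703 and 1229 CPM in Ctrl-IR, 2.24-fold above KO-IR (log2 fold change -1.17, SE 0.21, adjusted p = 0.00308). Cyp2c23 was at 22.6, 10.4 and 23.3 CPM there (-2.20, SE 0.38, adjusted p = 0.00299), and no library overlapped for either gene. Cyp4f18, which is expressed in neutrophils, was at 3.80, 1.93 and 1.46 CPM in Ctrl-IR and at 0.856, 0.623 and 0.774 CPM in KO-IR (-1.71, SE 0.44). Of 7 macrophage and neutrophil markers, 3 were higher and 3 lower in KO-IR. The neutrophil genes S100a8 and S100a9 were at 1.39 to 9.24 and 3.86 to 15.0 CPM in Ctrl-IR and at 13.9 to 17.4 and 21.7 to 37.4 CPM in KO-IR. The neutrophil gene Csf3r was at 2.91 to 11.5 and 4.36 to 6.59 CPM. Of the macrophage genes, Adgre1 was at 5.85 to 10 CPM in Ctrl-IR and at 0.193 to 0.513 CPM in KO-IR, Csf1r and C1qa were lower there too, and Cd68 was at 14.2 to 18.0 and 20.1 to 30.0 CPM. Cyp2d26 (-1.47) and Cyp2j11 (-0.88) were not called, and in both Ctrl-IR library 2 was lowest, at 14.9 and 30.1 CPM. Cyp4a10 gave -0.24 and Cyp4a14 -1.39, with Cyp4a14 at 197, 124 and 813 CPM in Ctrl-IR. Without Ctrl-IR library 4, the highest, Cyp4a14 gave -0.15. Cyp1b1 gave 0.08, a value that turned to -0.12 with total counts.

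**Figure D4:**
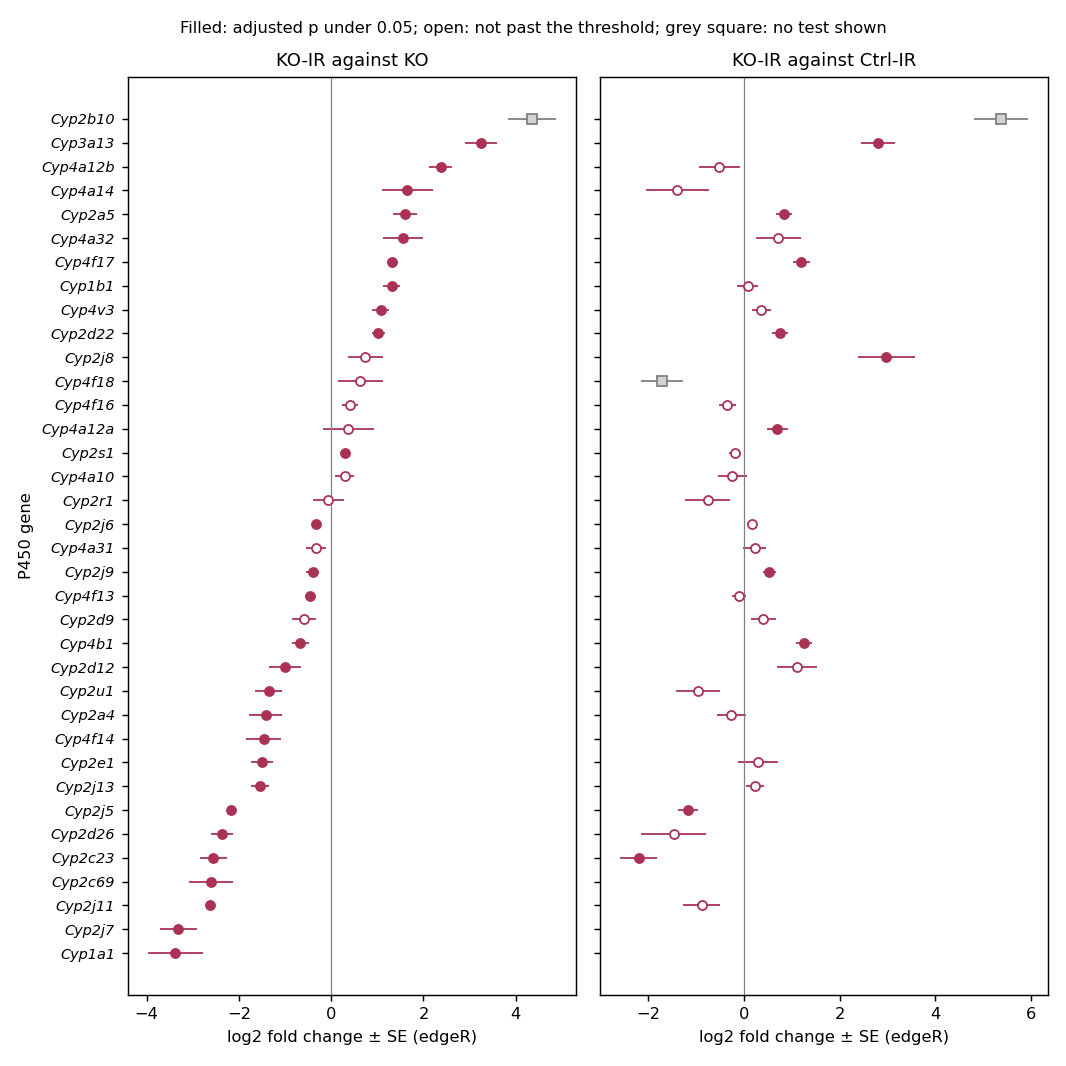
Log2 fold change (edgeR) with its SE as the bar for the P450 genes tested in KO-IR against KO (left) and KO-IR against Ctrl-IR (right), ordered by the left panel. Filled points have an adjusted p under 0.05, genes without a point were not tested, and grey squares mark Cyp2b10 and Cyp4f18, described without a test against the group through which they reached the level limit. Cyp2j8, which also reached that limit only through KO-IR, is drawn as a point and is likewise a description. Cyp3a13, Cyp2a5, Cyp4f17 and Cyp2d22 are filled to the right of 0 in both panels and Cyp2j5 and Cyp2c23 to the left, whereas Cyp4b1 and Cyp2j9 are filled on opposite sides.

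I/R in control kidneys gave fewer calls. With all 3 Ctrl libraries, 10 P450 genes were called between Ctrl-IR and Ctrl, 4 higher and 6 lower, where 19.4% of all genes tested were called, 11.4% higher and 7.97% lower. With Ctrl library 3 as the only Ctrl library, 6 were called, 1 higher and 5 lower, where 6.92% of all genes were (3.77% higher and 3.15% lower), and 3 of the 10 calls remained. These were Cyp4a12b, Cyp2j11 and Cyp4f14. With all 3 Ctrl libraries, 4 of 4 fibroblast markers (135 to 196 CPM in sum in Ctrl, 518 to 700 CPM in Ctrl-IR) and 6 of 7 macrophage and neutrophil markers (63.1 to 78.3 CPM and 92.4 to 117 CPM) were higher after I/R. Of the proximal tubule markers 4 of 12 were lower, as were 6 of 10 markers of other nephron segments. With Ctrl library 3 alone, 1 of 4 fibroblast and 4 of 7 macrophage and neutrophil markers were higher, and 3 of 12 proximal tubule markers and 1 of 10 of other segments were lower. The part of these in the P450 changes, Cyp1b1 and Cyp4f18 included, was not tested. Cyp4a12b was at 1.61, 2.14 and 4.38 CPM in Ctrl and at 29.8, 97.4 and 41.2 CPM in Ctrl-IR (log2 fold change 4.37, SE 0.56, adjusted p = 0.00638), or 3.66 (SE 0.73, adjusted p = 0.0237) against library 3, and it gave 3.73 without Ctrl-IR library 2. Cyp2j11 was at 235, 270 and 260 CPM in Ctrl and 91.8, 30.1 and 102.8 CPM in Ctrl-IR (-1.76, SE 0.41, adjusted p = 0.0284), or -1.82 (adjusted p = 0.0385) against library 3. Cyp4f14 had 105, 53 and 28 counts in Ctrl and 2, 8 and 5 in Ctrl-IR (-3.62, SE 0.63, adjusted p = 0.0143), or -2.52 (adjusted p = 0.0485). Without any single Ctrl library or Ctrl-IR library 1 the call for Cyp2j11 was lost (-1.94 to -1.7), and without Ctrl library 1 or 2 that for Cyp4f14 (-3.12 and -3.63).

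The 7 genes not called against library 3 alone were Cyp2a5 (1.72) and Cyp1b1 (0.94), which were higher, Cyp4f18 (2.5), which reached the level limit through Ctrl-IR, and Cyp2d12 (-1.86), Cyp1a1 (-1.55), Cyp2c23 (-1.42) and Cyp2j6 (-0.33), which were lower. Against library 3 alone they had the same direction, at 0.94, 0.90, 1.83, -1.37, -0.75, -0.82 and -0.34. The call for Cyp2j6 was lost whichever single library of the 6 was left out. Cyp2a5, Cyp1a1, Cyp2c23 and Cyp2d12 kept theirs in 2 of these 6 fits, and Cyp1b1 in 3. Cyp2a5 gave 2.33 without Ctrl library 3, and Cyp2d12 gave -2.55 without Ctrl-IR library 1. Cyp1b1, for instance, was at 20.3, 20.6 and 20.8 CPM in Ctrl and at 42.2, 46.0 and 29.9 CPM in Ctrl-IR, so that its Ctrl libraries were nearly equal. Without Ctrl library 3 there were 12 calls, 8 higher and 4 lower, where 14% of all genes were called, 8.48% higher and 5.48% lower. Without Ctrl library 1 or without Ctrl library 2 there was 1 call, where 2.39% and 2.56% of all genes were called. Without Ctrl-IR library 1 there were 3, where 5.28% of all genes were called, and without Ctrl-IR library 2 there were 6, 5 of them among the 10, where 10.2% of all genes were called.

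Called against library 3 alone, and not with all Ctrl libraries, were 3 genes, all lower after I/R: Cyp4b1 (log2 fold change -1.70, SE 0.28, adjusted p = 0.0134), Cyp2j13 (-1.66, SE 0.30, adjusted p = 0.0177) and Cyp2j5 (-1.12, SE 0.24, adjusted p = 0.0279). Against all 3 Ctrl libraries they gave -0.21, -0.06 and -0.64, since the Ctrl-IR libraries of Cyp4b1 and Cyp2j13 lay between those of Ctrl libraries 1 and 2 and that of library 3. Ctrl-IR and Ctrl share no library with KO-IR and KO, so the directions of both I/R comparisons could be set side by side. They were the same in 30 of 34 P450 genes with all 3 Ctrl libraries and in 30 of 36 with library 3 alone, against 73.0% and 72.5% of all genes.

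Without I/R, no P450 gene was called between KO and Ctrl by edgeR, as no gene was (0 of 15291, or 0%). At an unadjusted p under 0.05 there were 9 of the 34 P450 genes tested, against 16.8% of all genes, and 3 of 36 against 3.27% when Ctrl library 3 stood alone. DESeq2 called 6, where it called 3.25% of all genes. The groups did not overlap for 9 of the 36 genes, as for 21.0% of all genes. Leaving out Ctrl library 3, which sets 3 libraries with Y-linked transcripts against 2 with Xist, gave 16 calls, where 12.4% of all genes were called. Cyp4a14 was at 85.3, 11.2 and 43.0 CPM in KO, below all Ctrl libraries (log2 fold change -2.87, SE 0.73, adjusted p = 0.198), and -1.47 (SE 0.98) against library 3 alone. It gave -3.65 without KO library 1. Cyp2a4, at 183 to 550 CPM in KO and 26.2 to 131 CPM in Ctrl, gave 2.47 (SE 0.60, adjusted p = 0.188), 1.69 (SE 0.64) against library 3, and 3.1 without library 3 (adjusted p = 0.00905). Cyp2d26 was at 135 to 172 CPM in KO and at 467, 454 and 289 CPM in Ctrl (-1.41, SE 0.19, adjusted p = 0.136), or -0.94 (SE 0.76).

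The difference between the I/R effects in both genotypes was tested directly in all 12 libraries. It passed for 7 P450 genes, 4 with a higher and 3 with a lower I/R change in KO, where 30.6% of all genes passed (14.3% higher and 16.4% lower), and for 3 with Ctrl library 3 alone, where 14.4% did (6.31% higher and 8.11% lower). The 3 genes that passed both ways were Cyp3a13 (2.36, SE 0.54, adjusted p = 0.0068, and 2.5 with library 3 alone), Cyp4f17 (1.23, SE 0.23, adjusted p = 0.00218, and 1.04) and Cyp2j5 (-1.52, SE 0.31, adjusted p = 0.00398, and -1.07). In Ctrl-IR against Ctrl itself, Cyp3a13 (0.89, adjusted p = 0.127), Cyp4f17 (0.1, adjusted p = 0.748) and Cyp2j5 (-0.64, adjusted p = 0.156) were not called with all 3 Ctrl libraries. Without Ctrl library 3 the number of P450 genes that passed was 13, 5 higher and 8 lower, where 29.6% of all genes passed.

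Genes that serve P450 enzymes were read from lists, whose counts stand beside the 65.5% of all genes called between KO-IR and KO and the 46.9% called between KO-IR and Ctrl-IR. Of 8 electron donors and partners, 2 rose and 3 fell between KO and KO-IR. Por was at 342, 424 and 318 CPM in KO, 292, 263 and 295 CPM in KO-IR and 162, 165 and 226 CPM in Ctrl-IR. All 8 heme synthesis genes were called in that comparison, 3 higher and 5 lower. Alas1, the rate-limiting enzyme, rose from 157 to 222 CPM to 811 to 866 CPM (log2 fold change 2.07), and Uros, the synthase of uroporphyrinogen III, fell from 20.3 to 24.7 CPM to 2.48 to 2.94 CPM (-3.08). Hmox1, which degrades heme, rose from 21.5 to 28.2 CPM to 260 to 611 CPM (4.01). Of the epoxide hydrolases, which break down the epoxides made by Cyp2c and Cyp2j, Ephx1 (-1.70) and Ephx2 (-0.67) fell.

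Of 23 nuclear receptors and other regulators of P450 genes tested, 4 rose and 12 fell between KO and KO-IR. Cebpb, a factor of the acute-phase response, rose (log2 fold change 2.90). Between Ctrl-IR and KO-IR, 17 of 28 PPARα targets were higher in KO-IR and 2 lower, 5 of 23 regulators higher and 8 lower, and 4 of 5 AHR targets higher and 1 lower. The P450 genes of families 5 and above, mostly enzymes of steroid, bile acid and vitamin metabolism, gave 1 higher and 4 lower of 9 tested between KO and KO-IR.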

How the data were processed

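RNA was extracted with TRIzol from mouse kidney, sequenced on an Illumina instrument and, per the submitters' processing notes, aligned to mm10 with HISAT2 2.0.4. The counter, annotation and use of strand are not given in the sources used here. The table deposited by the authors holds whole-number read counts, not normalized, for 55487 genes, of which 55227 have a symbol, in 12 columns, and 0 count columns were left unused. Each column was matched to a sample by name, except that of Ctrl library 3, whose name gives the group only. Libraries of a group differed beyond sampling noise (chi-square per gene 7.63 to 60.9), so that none was counted as a copy of another.

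Counts were fitted in edgeR 4.0.16 (R 4.3.3) with filterByExpr, TMM factors and the quasi-likelihood F test over all genes that passed, on the 6 libraries of each pair of groups or on all 12 for the difference between genotypes in the I/R effect. Adjusted p-values are Benjamini-Hochberg values, and genes under 0.05 were called. The SE is the size of the log2 fold change divided by the square root of F. The edgeR and DESeq2 steps were tested on simulated data. Values per library were given for the 8 members with the highest mean level, the 5 with the smallest adjusted p in each comparison, and 10 members named by function. Levels of Cyp2j13 and counts of Cyp2j7, Cyp2j8 and Cyp2c69 were given outside this rule. For each gene list, counts were given, with values for up to 2 genes of smallest adjusted p, and for further genes whose role bears on a P450 result. The members and gene lists were chosen with earlier results of these data known. With 3 libraries against 3, an exact permutation test cannot go below p = 0.1, so none was used. Alternatives were DESeq2 1.42.0, total-count scaling, no filter on low counts, a stricter filter of 10 counts per library, joint estimation over the 12 libraries, replicate numbers as a block, the Ctrl libraries with Xist left out, and each library left out in turn. Lengths and shared sequence came from GENCODE M21 and upstream sequences from RefSeq (GRCm38.p6). A result of 1 regulator is not reported here.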

Additional observations from a re-analysis of the deposited data

Results flagged for a closer look

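For 7 P450 genes the change after I/R differed between KO and Ctrl, by edgeR's test of that difference over all 12 libraries, which 30.6% of all genes passed. The values are the log2 fold change of KO-IR against KO minus that of Ctrl-IR against Ctrl. Of these, 3 also passed when Ctrl library 3 was the only Ctrl library, where 14.4% of all genes passed. Cyp3a13 gave 2.36 (adjusted p = 0.0068, and 2.5 with adjusted p = 0.0433 with library 3 alone). Cyp4f17 gave 1.23 (adjusted p = 0.00218, and 1.04 with adjusted p = 0.0342). Cyp2j5 gave -1.52 (adjusted p = 0.00398, and -1.07 with adjusted p = 0.0481).

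The other 4 kept their direction with library 3 alone but did not pass. Cyp2d22 gave 1.09 (adjusted p = 0.00526, and 0.77 with adjusted p = 0.0842). Cyp2a4 gave -2.73 (adjusted p = 0.017, and -1.96 with adjusted p = 0.104), or -3.36 without Ctrl library 3. Cyp4a12b gave -1.99 (adjusted p = 0.0349, and -1.3 with adjusted p = 0.283), and it passed in 4 of 12 fits that left out 1 library (-1.34 without Ctrl-IR library 2). Cyp2j8 reached the level limit only through KO-IR, so its values are a description. It gave 2.22, or 1.74 with library 3 alone and 3.5 without Ctrl-IR library 1.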

How the results depend on the processing

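Between Ctrl-IR and Ctrl, 18 P450 genes were called with replicate numbers as a block (9 higher and 9 lower, with 23.2% of all genes called) and 6 without the Ctrl libraries that carry Xist (6.92%), against 10 in the reported fit (19.4%). There Cyp4b1 gave 0 and Cyp2j13 0.16 with total counts, and 3.04 and 7.48 with the replicate block. Between KO and Ctrl, where edgeR called 0, DESeq2 called 6 (3.25% of all genes), the fit with no filter 6 (1.47%) and the replicate block 16 (9.01%). For the difference between genotypes in the I/R effect, the block gave 11 calls, 3 higher and 8 lower (19.9% of all genes). The reported fit gave 7, 4 higher and 3 lower (30.6%). With total counts Cyp1b1 gave -0.12 between KO-IR and Ctrl-IR. In the fit to all 12 libraries that comparison had 14 calls (51.2% of all genes), 6 higher and 8 lower, in place of 9 higher and 3 lower. With the replicate block it had 8 calls, 7 higher and 1 lower, where 11% of all genes were called. Of the 12 reported calls, 7 were kept there. No Ctrl-IR or KO library has the number of Ctrl library 3. In the block fits of Ctrl-IR or KO against Ctrl, it is therefore alone in its block and adds nothing to the difference between groups. Those fits thus rest on the Ctrl libraries that carry Xist. Leaving out Ctrl library 3, with no block, also gave 16 calls for KO against Ctrl, 10 higher and 6 lower in both fits. For Ctrl-IR against Ctrl it gave 12, where the block gave 18. The cause of the other shifts was not tested. Same-numbered libraries did not deviate together (12 pairs, r from -0.215 to 0.235, median -0.026). With 3 libraries per group, this cannot tell whether same-numbered libraries shared a litter or day.

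Leaving out 1 library gave 1 to 12 calls for Ctrl-IR against Ctrl, 9 to 18 for KO-IR against Ctrl-IR, 0 to 16 for KO against Ctrl, 24 to 27 for KO-IR against KO and 5 to 13 for the difference between genotypes. The single genes that turned ran from -0.73 to 2.99 (Cyp4b1), from -0.62 to 7.58 (Cyp2j13) and from -0.06 to 0.26 (Cyp4f17) in Ctrl-IR against Ctrl, from -0.54 to 0.12 (Cyp4a10) and from -0.16 to 0.22 (Cyp1b1) in KO-IR against Ctrl-IR, and from -0.13 to 1.08 (Cyp4a12a) and from -0.24 to 0.1 (Cyp2r1) in KO-IR against KO. Of 492 such values of single genes, 396 kept direction and side of the threshold, 77 lost a call, 9 gained one and 10 turned. Of 455 values under the other alternatives the numbers were 386, 43, 21 and 5. Total counts moved the median of all genes by 0.12, -0.21, -0.12, 0.04 and -0.09 in these 5 tests, in the order just given.

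Genes with few counts (Cyp1a1, Cyp2b10, Cyp2c69, Cyp2j7, Cyp2j8) have wide errors, and the values against Ctrl without the Xist libraries rest on 1 Ctrl library.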
